A study of Mus musculus with 12 samples.

Results

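The Hox genes encode homeodomain transcription factors that lie side by side in the HoxA, HoxB, HoxC and HoxD clusters. They were taken here as every gene of the count table whose symbol is Hox, a cluster letter and a paralog number. The rule found 39 of 23412 genes, 11 in HoxA, 10 in HoxB, 9 in HoxC and 9 in HoxD. RNA had been measured by bulk RNA-Seq in 12 libraries of mouse embryonic stem cells (mESCs), 3 each of WT and of 3 lines that lack the nucleosome-binding proteins HMGN1, HMGN2 or both. The comparisons ask how far the Hox clusters, which are mostly silent in this cell type, differ between the 4 genotypes.

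Genes at one end of each cluster (low paralog numbers) are used toward the head of the embryo and early, and those at the other end (high numbers) toward the tail and late. Genes with the same number in different clusters are paralogs and often share functions. In pluripotent cells the clusters carry both Polycomb-deposited H3K27me3 and trithorax-deposited H3K4me3, and retinoic acid, Wnt signals and Cdx proteins can switch them on as cells differentiate.

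All cells were v6.5, a male line grown on gelatin in serum with LIF, and RNA was enriched for poly-A transcripts. In Hmgn1-/- mESCs both Hmgn1 alleles had lost 1 bp of exon 3, and in Hmgn2-/- mESCs both Hmgn2 alleles had gained 1 bp in exon 4. Hmgn1-/-Hmgn2-/- mESCs came from editing Hmgn1 in the Hmgn2-/- line, so that those lines share a parent. Each knockout line was grown from a single edited cell, so an effect of the genotype and a property of the clone cannot be told apart. The libraries held 17337908 to 31448468 counts, and 16311 to 17295 genes had at least 1 count. At this depth 3 counts, taken here as the floor of detection, corresponded to 0.0954 to 0.173 CPM, counts scaled to the library total. Intervals and floors cover counting error only, and intervals pool the 3 libraries of a genotype, which leaves out the spread between them. The reads carried no molecular identifiers.

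The edited genes were examined ahead of the Hox genes. Hmgn1 had 21181, 10607 and 17684 counts in the WT libraries, 3600, 2916 and 3085 in Hmgn1-/-, 14192, 14690 and 10760 in Hmgn2-/-, and 673, 441 and 563 in Hmgn1-/-Hmgn2-/- mESCs. Its log2 fold change (FC) against WT was -2.16 in Hmgn1-/- and -4.89 in Hmgn1-/-Hmgn2-/- mESCs (adjusted p = 3.36e-11 and 8.56e-15). Hmgn2 had 4374, 2167 and 3444 counts in WT, 2746, 2369 and 2382 in Hmgn1-/-, 1322, 1441 and 904 in Hmgn2-/-, and 1683, 1118 and 1428 in Hmgn1-/-Hmgn2-/- mESCs. Its log2 FC was -1.24 in Hmgn2-/- and -1.25 in Hmgn1-/-Hmgn2-/- mESCs (adjusted p = 5.73e-06 and 1.95e-08). The RNA of each edited gene was thus low in the libraries labelled as edited in that gene. Of 10 markers of embryonic stem cells, all 10 were found, and their summed level was 6430 ± 141 CPM in WT, 6659 ± 250 in Hmgn1-/-, 6490 ± 534 in Hmgn2-/- and 6306 ± 384 in Hmgn1-/-Hmgn2-/- mESCs (SD, n = 3 each). The most abundant was Pou5f1. With edgeR 0 of the 10 were past the threshold in any knockout against WT, and 1 was higher in Hmgn1-/- mESCs when WT replicate 1 was left out.

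The Hox genes together made up a very small part of the RNA. Their summed counts were 394, 231 and 377 in the WT libraries, 329, 224 and 248 in Hmgn1-/-, 421, 319 and 224 in Hmgn2-/-, and 584, 325 and 377 in Hmgn1-/-Hmgn2-/- mESCs. That is 10.6 to 18.8 CPM before TMM scaling, for all 39 genes. Over the 12 libraries the Hox genes collected 4053 counts. HoxA genes held 1878 of them (46.3%), HoxD 1090 (26.9%), HoxB 587 (14.5%) and HoxC 498 (12.3%). By paralog group, 27% lay in group 13 and 25.0% in group 1, at opposite ends of the clusters. Group 12, also at the late end, held 1.43%, and groups 5 and 6, in the middle, held 2.66% and 0.691%. Groups 13, 1, 12, 5 and 6 have 4, 3, 2, 3 and 3 genes, so a share can rest on 1 of them. Hoxd13 alone held 658 of the 1093 counts of group 13.

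In every library 7 of the 39 genes had at most 3 counts. They were Hoxa6, Hoxb5, Hoxb6, Hoxc5, Hoxc8, Hoxc11 and Hoxd12. Hoxa6 had 2 counts in 1 Hmgn1-/-Hmgn2-/- library and Hoxb5 had 2 in 1 Hmgn2-/- library, and each had 0 elsewhere. Hoxc11 had 1 count in 1 WT library and 0 elsewhere. Hoxb6 and Hoxd12 each collected 5 counts over the 12 libraries, Hoxc8 6 and Hoxc5 9. No Hox gene was at 0 in all 12 libraries. By cluster these were 1 of 11 HoxA genes, 2 of 10 HoxB, 3 of 9 HoxC and 1 of 9 HoxD. By paralog group they were 2 of 3 genes in group 5, 2 of 3 in group 6, 1 of 3 in groups 8 and 11 each, and 1 of 2 in group 12. In groups 1, 2, 3, 4, 7, 9, 10 and 13, every gene exceeded 3 counts in some library. For the 7 genes, differences between genotypes were not detectable at this depth, and no fold is given.

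At the other end, 8 genes exceeded 3 counts in every library, among them Hoxa7, Hoxa10, Hoxb4, Hoxb9, Hoxc13 and Hoxd13. Hoxc13 and Hoxd13 were among those that reached 10 counts in all 12 libraries. The remaining 24 exceeded 3 counts in some libraries and not in others. Within a genotype, the genes over 3 counts in all 3 libraries numbered 14 in WT, 13 in Hmgn1-/-, 13 in Hmgn2-/- and 18 in Hmgn1-/-Hmgn2-/- mESCs. Those at or under 3 counts in all 3 libraries numbered 9, 15, 14 and 10, respectively. A count of 3 is a lower CPM in a larger library, and the part of depth in these numbers was not tested.

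**Figure D1:**
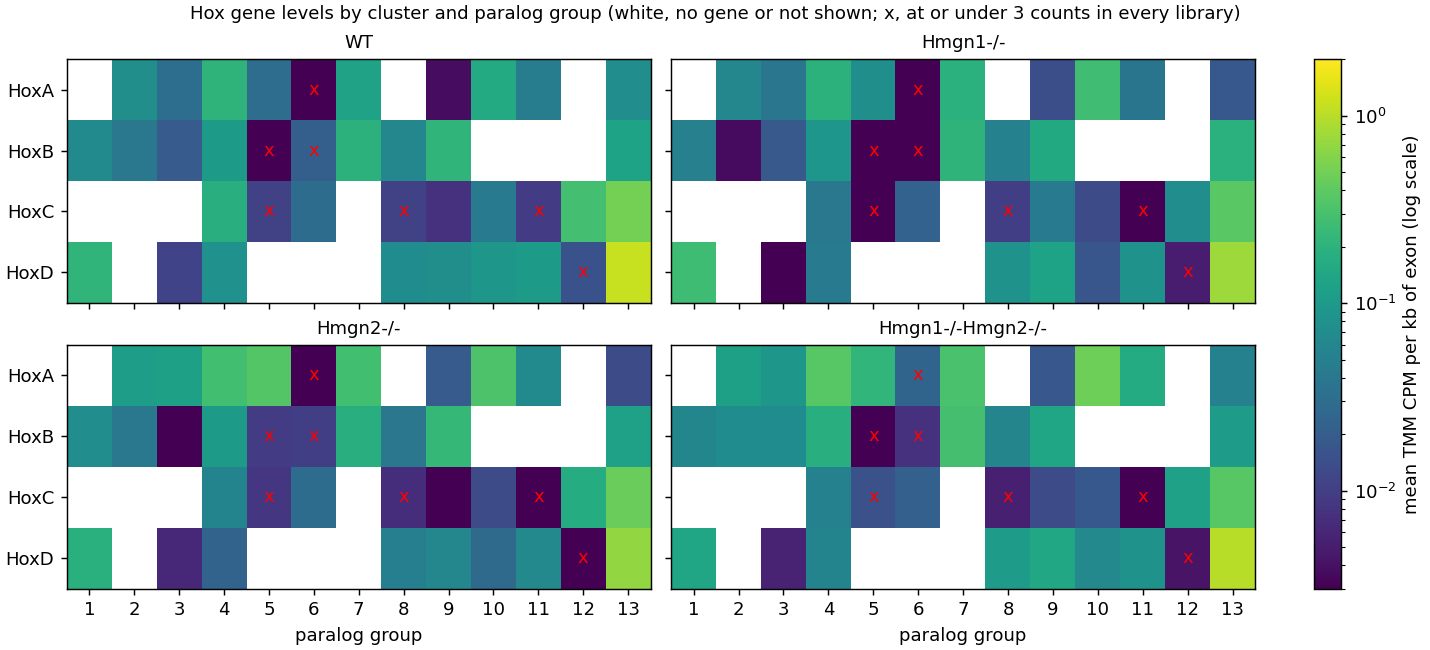
Mean level of Hox genes, as TMM-scaled CPM per kb of exon on a log color scale, by cluster (vertical axis) and paralog group (horizontal axis) in the 4 genotypes (n = 3 libraries each). Crosses mark the 7 genes at or under 3 counts in every library, and Hoxd13 (mean over the 12 libraries 0.899) is brighter than Hoxc13 (0.429).

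Levels were compared between genes per kb of exon, after scaling by the trimmed mean of M values (TMM). On this scale Hoxd13, a digit and genital-tubercle gene at the late end of its cluster, stood at 0.899 CPM per kb over the 12 libraries, ahead of Hoxc13 at 0.429, Hoxa10 at 0.308, Hoxa4 at 0.261 and Hoxa7 at 0.227. The least abundant were Hoxc11 and Hoxb5, at 0.00231 and 0.00230 CPM per kb. By genotype Hoxd13 stood at 1.15 ± 0.238 CPM per kb in WT, 0.764 ± 0.172 in Hmgn1-/-, 0.701 ± 0.0943 in Hmgn2-/- and 0.983 ± 0.210 in Hmgn1-/-Hmgn2-/- mESCs (SD, n = 3 each).

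The HoxA genes as a sum differed most from WT in the lines without HMGN2. Their summed TMM-scaled level was 3.47, 4.20 and 4.22 CPM in the WT libraries, 6.19, 3.87 and 5.24 in Hmgn1-/-, 9.39, 7.23 and 6.30 in Hmgn2-/-, and 10.8, 6.502 and 7.36 in Hmgn1-/-Hmgn2-/- mESCs. All 6 libraries with the Hmgn2 insertion lay above all 3 WT libraries, while the Hmgn1-/- libraries overlapped WT. The means were 3.96 ± 0.430, 5.10 ± 1.16, 7.64 ± 1.59 and 8.21 ± 2.26 CPM in the same order (SD, n = 3 each). HoxA genes made up 28.2% to 32.5% of Hox counts in WT libraries, 36.2% to 48.9% in Hmgn1-/-, 47.3% to 59.9% in Hmgn2-/- and 44.3% to 57.5% in Hmgn1-/-Hmgn2-/- mESCs. By this share all 9 knockout libraries lay above the 3 WT libraries. The sums are descriptions of a chosen list and were not tested.

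The HoxD sum ran the other way in the single knockouts. It was 4.09, 4.98 and 4.53 CPM in the WT libraries, 3.23, 3.44 and 3.63 in Hmgn1-/-, and 3.12, 2.23 and 2.97 in Hmgn2-/- mESCs. None of these 6 knockout libraries reached the lowest WT library. Hoxd13 alone had means of 2.86, 1.90 and 1.74 CPM in WT, Hmgn1-/- and Hmgn2-/- mESCs, beside HoxD means of 4.54, 3.43 and 2.775. Most of the HoxD difference thus lay in 1 gene. In Hmgn1-/-Hmgn2-/- mESCs the HoxD sum was 3.94, 4.65 and 3.36 CPM and overlapped WT. The HoxC sum was 3.06, 1.62 and 2.18 CPM in WT libraries and had means of 1.33 ± 0.266, 1.58 ± 0.289 and 1.36 ± 0.269 in the 3 lines (SD, n = 3 each). WT replicate 1 stood highest for HoxC, and each line overlapped WT. The HoxB sum was 1.98 ± 0.250 CPM in WT, 1.72 ± 0.415 in Hmgn1-/-, 1.87 ± 0.481 in Hmgn2-/- and 2.37 ± 0.0932 in Hmgn1-/-Hmgn2-/- mESCs (SD, n = 3 each). For HoxB, the 3 Hmgn1-/-Hmgn2-/- libraries lay above the 3 WT libraries and both single knockouts overlapped WT.

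Over all 39 genes the sum was highest in Hmgn1-/-Hmgn2-/- mESCs. The summed level was 12.8 ± 0.400 CPM in WT, 11.6 ± 0.982 in Hmgn1-/-, 13.9 ± 2.12 in Hmgn2-/- and 15.9 ± 2.42 in Hmgn1-/-Hmgn2-/- mESCs (SD, n = 3 each). The highest library was Hmgn1-/-Hmgn2-/- replicate 1 at 18.7 CPM, and all 3 libraries of that line lay above WT. By position, the 12 genes of paralog groups 1 to 4 summed to 4.51, 4.50, 5.98 and 6.47 CPM in WT, Hmgn1-/-, Hmgn2-/- and Hmgn1-/-Hmgn2-/- mESCs, with SDs of 0.528, 1.00, 0.634 and 1.69. The 11 genes of groups 5 to 8 summed to 1.25 ± 0.177, 1.46 ± 0.542, 2.14 ± 0.554 and 2.36 ± 0.428 CPM. In both of these sets every library of the lines without HMGN2 lay above every WT library, and Hmgn1-/- overlapped WT. The 16 genes of groups 9 to 13 summed to 7.003 ± 0.471, 5.63 ± 0.464, 5.74 ± 0.949 and 7.09 ± 0.341 CPM (SD, n = 3 each). In groups 9 to 13 the Hmgn1-/- libraries lay below WT and the other lines overlapped it. Hoxd13 is among these genes, with means of 2.86 CPM in WT and 1.90 in Hmgn1-/- mESCs.

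**Figure D2:**
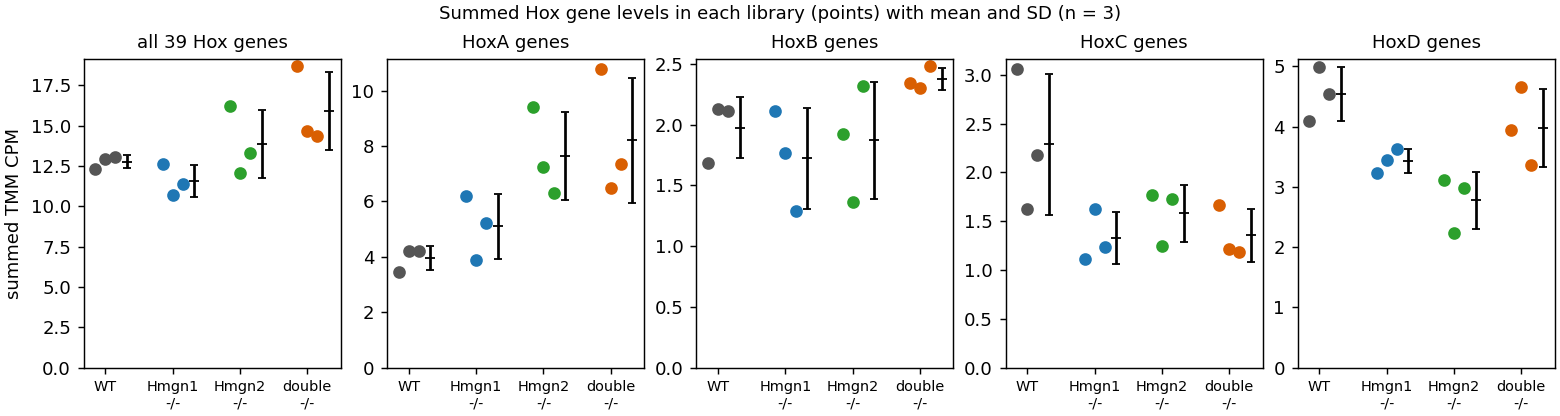
Summed TMM-scaled CPM of all 39 Hox genes and of the genes of each cluster, in each library (points) with mean and SD (bars, n = 3). HoxA sums of the Hmgn2-/- libraries (6.30 to 9.39) and the Hmgn1-/-Hmgn2-/- libraries (6.502 to 10.8) lie above the WT libraries (3.47 to 4.22), and HoxD sums of the Hmgn2-/- libraries (2.23 to 3.12) lie below them (4.09 to 4.98).

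The median Hox promoter held more CG dinucleotides than the median promoter of the genome. Windows of 300 bases around a gene start came from RefSeq (GRCm38.p6) for 22 of the 39 Hox genes, 24 windows in all. They are written 5′ to 3′ in lower case, with every CG dinucleotide in capitals. Hoxa10, which acts in limb, uterus and blood development, had a pair of windows, chr6:52240805-52241104 and chr6:52234890-52235189, minus strand. The Hoxa7 window was chr6:52218524-52218823, minus strand, and that of Hoxd13 was chr2:74667975-74668274, plus strand.
Hoxa10, upstream start: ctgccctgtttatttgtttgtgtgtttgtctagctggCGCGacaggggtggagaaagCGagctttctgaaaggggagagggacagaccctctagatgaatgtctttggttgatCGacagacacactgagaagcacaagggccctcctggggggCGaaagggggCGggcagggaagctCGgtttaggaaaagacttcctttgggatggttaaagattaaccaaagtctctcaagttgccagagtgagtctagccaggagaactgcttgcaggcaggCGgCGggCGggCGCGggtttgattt
Hoxa10, downstream start: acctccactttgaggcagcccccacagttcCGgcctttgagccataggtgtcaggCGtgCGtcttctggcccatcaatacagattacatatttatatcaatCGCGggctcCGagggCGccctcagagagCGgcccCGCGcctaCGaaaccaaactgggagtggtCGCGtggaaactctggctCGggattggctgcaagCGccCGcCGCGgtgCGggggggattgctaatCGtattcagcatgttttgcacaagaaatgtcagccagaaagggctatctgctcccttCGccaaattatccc
Hoxa7: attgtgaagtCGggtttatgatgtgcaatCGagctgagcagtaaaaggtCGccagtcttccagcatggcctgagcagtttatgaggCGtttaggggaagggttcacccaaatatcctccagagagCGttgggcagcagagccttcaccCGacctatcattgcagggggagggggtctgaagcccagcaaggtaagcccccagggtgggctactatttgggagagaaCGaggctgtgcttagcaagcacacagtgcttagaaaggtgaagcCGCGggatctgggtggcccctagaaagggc
Hoxd13: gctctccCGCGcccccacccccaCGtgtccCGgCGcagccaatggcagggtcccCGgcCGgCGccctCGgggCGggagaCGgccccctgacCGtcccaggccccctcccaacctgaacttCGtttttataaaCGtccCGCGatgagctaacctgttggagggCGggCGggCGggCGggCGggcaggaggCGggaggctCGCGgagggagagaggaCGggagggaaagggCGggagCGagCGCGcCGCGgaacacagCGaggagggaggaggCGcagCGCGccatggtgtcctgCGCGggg
The 4 windows held 12, 21, 9 and 37 CG dinucleotides, and the Hoxd13 window was 74.3% G and C. Over the 24 Hox windows the median was 14.5 CG dinucleotides, against 7 over all 32851 promoter windows of the table, and median GC content was 57.7% against 52.7%. The retinoic acid receptor half-site AGGTCA, on either strand, was in 7 Hox windows (29.2%, against 16.3% of all windows) and in none of the 4 shown. The caudal core TTTATG, on either strand, was in 5 (20.8%, against 11.9%), among them Hoxa7. TATAAA, the TATA box letters, was on either strand of 4 (16.7%, against 13.6%), among them Hoxd13 and the downstream Hoxa10 window, which holds it on the strand opposite to the letters shown. Such matches describe letters and do not show binding.

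Hoxa10 had 15, 14 and 9 counts in the WT libraries, 34, 10 and 19 in Hmgn1-/-, 35, 29 and 13 in Hmgn2-/-, and 61, 26 and 40 in Hmgn1-/-Hmgn2-/- mESCs. As TMM-scaled CPM these were 0.469, 0.784 and 0.312 in WT, 1.31, 0.478 and 0.873 in Hmgn1-/-, 1.35, 1.10 and 0.773 in Hmgn2-/-, and 1.95, 1.17 and 1.53 in Hmgn1-/-Hmgn2-/- mESCs. The 3 Hmgn1-/-Hmgn2-/- libraries were above every WT library, while WT replicate 2 reached into the range of both single knockouts. Hoxa7, a trunk-patterning gene, had 9, 7 and 12 counts in WT, 17, 11 and 10 in Hmgn1-/-, 24, 21 and 12 in Hmgn2-/-, and 31, 15 and 26 in Hmgn1-/-Hmgn2-/- mESCs. Scaled, it was at 0.281, 0.392 and 0.415 CPM in WT, 0.653, 0.526 and 0.460 in Hmgn1-/-, 0.924, 0.795 and 0.714 in Hmgn2-/-, and 0.993, 0.677 and 0.992 in Hmgn1-/-Hmgn2-/- mESCs. All 9 knockout libraries lay above all 3 WT libraries for Hoxa7.

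Hoxa3, which shapes pharyngeal organs, had 7, 5 and 2 counts in WT, 6, 6 and 4 in Hmgn1-/-, 18, 20 and 12 in Hmgn2-/-, and 25, 12 and 9 in Hmgn1-/-Hmgn2-/- mESCs. Its scaled level was 0.189 ± 0.108 CPM in WT, 0.234 ± 0.0515 in Hmgn1-/-, 0.721 ± 0.0327 in Hmgn2-/- and 0.562 ± 0.230 in Hmgn1-/-Hmgn2-/- mESCs (SD, n = 3 each). Hoxa3 was low in WT and Hmgn1-/- libraries alike, and all 6 libraries of the lines without HMGN2 lay above them.

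Hoxd13 had 70, 59 and 89 counts in the WT libraries, 37, 47 and 44 in Hmgn1-/-, 52, 41 and 28 in Hmgn2-/-, and 71, 67 and 53 in Hmgn1-/-Hmgn2-/- mESCs. Its scaled level was 2.19, 3.30 and 3.08 CPM in WT, 1.42, 2.25 and 2.02 in Hmgn1-/-, 2.00, 1.55 and 1.67 in Hmgn2-/-, and 2.28, 3.03 and 2.02 in Hmgn1-/-Hmgn2-/- mESCs. The Hmgn2-/- libraries lay below WT, and the other lines overlapped it. Hoxc13, a hair and nail gene, had 54, 16 and 35 counts in WT, 21, 25 and 17 in Hmgn1-/-, 30, 24 and 22 in Hmgn2-/-, and 30, 19 and 24 in Hmgn1-/-Hmgn2-/- mESCs. WT itself spanned 0.896 to 1.69 CPM for Hoxc13, wide enough to overlap each line. Hoxb9, a thoracic patterning gene, had 17, 7 and 20 counts in WT, 12, 8 and 8 in Hmgn1-/-, 15, 11 and 13 in Hmgn2-/-, and 9, 10 and 9 in Hmgn1-/-Hmgn2-/- mESCs, and it also overlapped WT in each line.

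**Figure D3:**
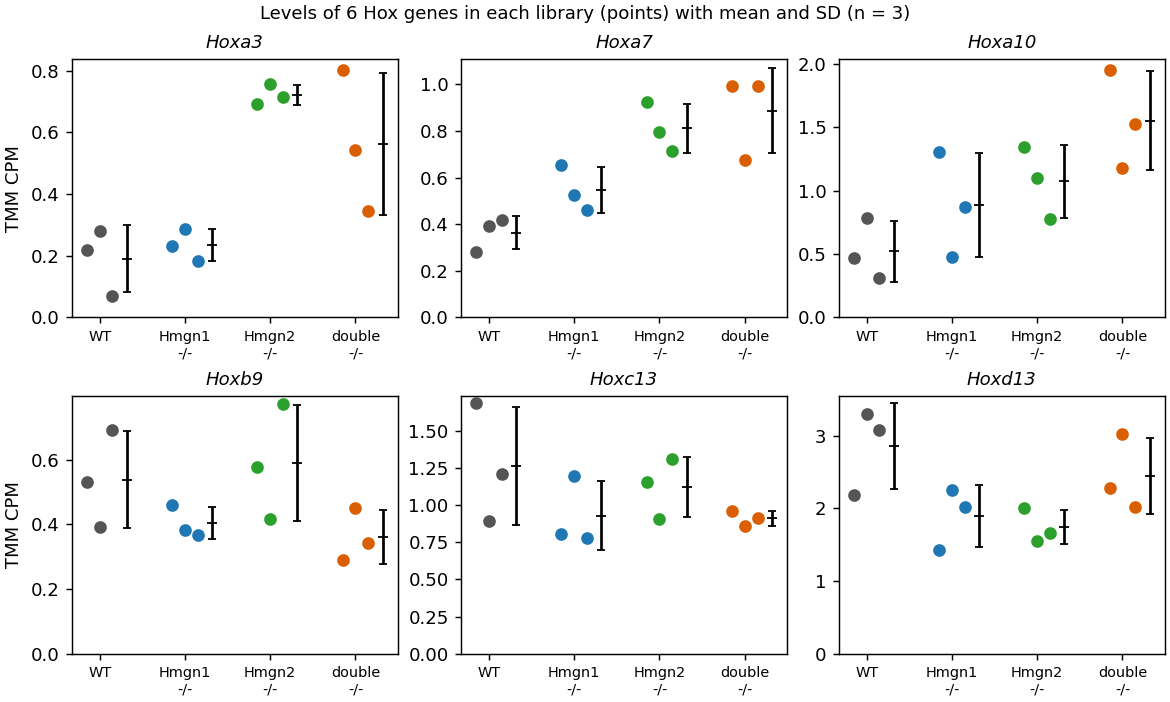
TMM-scaled CPM of 6 Hox genes in each library (points) with mean and SD (bars, n = 3) in the 4 genotypes, each panel with its own axis from 0. For Hoxa7 every knockout library (0.460 CPM or more) lies above every WT library (0.415 or less), and for Hoxa3 the lines without HMGN2 lie at 0.343 CPM or more.

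In Hmgn1-/- mESCs against WT, no Hox gene differed past the threshold, an adjusted p under 0.01 and a log2 FC of at least 1 in size. Of the 39 genes, 7 passed the filter on low counts and were tested with edgeR, and 0 were past the threshold, where 5.98% of the 13917 genes tested were (0.898% higher and 5.08% lower). DESeq2 also gave 0. At an unadjusted p under 0.05 there was 1, Hoxd13, which was lower (log2 FC -0.59, standard error 0.25, adjusted p = 0.0911), where 19.8% of all genes tested were lower at that limit. The groups did not overlap for 1 of the 7, Hoxa7 (log2 FC 0.61, adjusted p = 0.267), against 42.3% of all genes tested. Hoxa10 had the highest log2 FC of the 7, at 0.86 (standard error 0.43, adjusted p = 0.157), and Hoxa7 and Hoxa10 had passed the filter only through the Hmgn1-/- libraries. With Hmgn1-/- replicate 3 left out, Hoxc4 entered the test and was past the threshold (log2 FC -3.38, adjusted p = 0.00855). Hoxc4 had 16, 5 and 18 counts in WT and 1, 1 and 5 in Hmgn1-/- mESCs, and the library left out held the 5. It entered only through WT libraries, which favours a lower value in the knockout.

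In Hmgn2-/- mESCs against WT, the values of Hoxa3, Hoxa7 and Hoxa10 were higher and those of Hoxd13 lower, short of the threshold. Hoxa3 had the highest log2 FC, 1.98 (standard error 0.45, adjusted p = 0.0104, higher in 3 of 3 libraries). Hoxa7 followed at 1.19 (standard error 0.34, adjusted p = 0.0323) and Hoxa10 at 1.14 (standard error 0.38, adjusted p = 0.058). Hoxd13 had the lowest, -0.69 (standard error 0.24, adjusted p = 0.0636, lower in 3 of 3 libraries). With edgeR 10 of the 39 genes were tested and 0 were past the threshold, against 5.15% of 14047 genes (0.776% higher and 4.38% lower). DESeq2 also gave 0, and at an unadjusted p under 0.05 there were 4 higher and 1 lower, against 14.5% and 16.6% of all genes. The groups did not overlap for 4 of the 10, among them Hoxa3, Hoxa7 and Hoxd13, close to the 36.2% of all genes tested. Hoxa3, Hoxa7 and Hoxa10 had passed the filter only through the Hmgn2-/- libraries, which favours higher values there. Without WT replicate 3 or without Hmgn2-/- replicate 3, Hoxa5 was past the threshold (adjusted p = 0.00944 and 0.00676). Hoxa5 had 0, 0 and 5 counts in WT and 28, 14 and 6 in Hmgn2-/- mESCs. It entered both tests only through the Hmgn2-/- libraries, which favours higher values there. The WT library left out held all of its WT counts, and the Hmgn2-/- library left out was the lowest.

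In Hmgn1-/-Hmgn2-/- mESCs against WT, Hoxa10 was past the threshold, in a test that it entered only through the Hmgn1-/-Hmgn2-/- libraries. Its level went from 0.521 ± 0.240 CPM in WT to 1.55 ± 0.391 (SD, n = 3 each), a log2 FC of 1.66 (standard error 0.35, adjusted p = 0.00298, higher in 3 of 3 libraries). It was the 1 Hox gene of 10 tested that passed the threshold with edgeR, where 6.3% of 14128 genes passed (1.3% higher and 5% lower). Hoxa7 stood next, with a log2 FC of 1.31 (standard error 0.35, adjusted p = 0.0125). The lowest was Hoxb9 at -0.64 (standard error 0.39, adjusted p = 0.249), and Hoxd13 was at -0.22 (adjusted p = 0.51). Hoxb9 had passed the filter only through the WT libraries, which favours a lower value in the knockout. At an unadjusted p under 0.05 there were 3 higher, Hoxa7 and Hoxa10 among them, and 0 lower, against 18.8% and 20.1% of all genes, and DESeq2 also called 1, Hoxa10 (log2 FC 1.63). The groups did not overlap for 4 of the 10, near the 42.4% of all genes tested. Hoxa7, Hoxa10 and Hoxb7 had passed the filter only through the Hmgn1-/-Hmgn2-/- libraries, which favours higher values there. The call of Hoxa10 thus rests on a gene that entered the test through the line in which it was called.

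The call of Hoxa10 depended on particular libraries. Its log2 FC was 1.38 without WT replicate 3 (adjusted p = 0.0185), 1.45 without Hmgn1-/-Hmgn2-/- replicate 1 (adjusted p = 0.0223) and 1.68 without Hmgn1-/-Hmgn2-/- replicate 3 (adjusted p = 0.0117). Without any of the other 3 libraries Hoxa10 stayed past the threshold, at 1.63 to 1.98. Over every setting in which it was tested, the adjusted p of Hoxa10 ran from 0.000324 to 0.0223. As a rate, its 127 counts in the Hmgn1-/-Hmgn2-/- libraries and 38 in WT give a ratio of 3.26 per count sequenced (95% interval 2.25 to 4.81, counting error only). The ratios of Hoxa10 in the single knockouts were 1.86 (1.23 to 2.87) in Hmgn1-/- and 2.25 (1.51 to 3.42) in Hmgn2-/- mESCs. These comparisons share the 3 WT libraries.

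**Figure D4:**
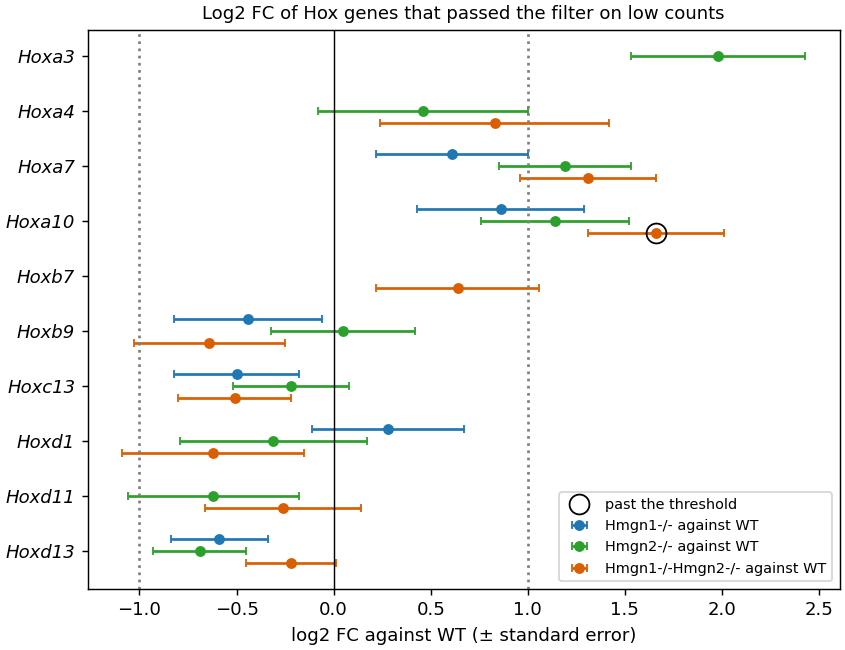
Log2 FC against WT with standard error for Hox genes that passed the filter on low counts, in each knockout (3 libraries against 3). The ring marks Hoxa10 in Hmgn1-/-Hmgn2-/- mESCs (1.66), and Hoxa3 in Hmgn2-/- mESCs has the highest value (1.98).

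Between the knockout lines, no Hox gene was past the threshold. In Hmgn2-/- against Hmgn1-/- mESCs, 9 were tested with edgeR and 0 called, against 0.176% of 13648 genes (0.0586% higher and 0.117% lower). DESeq2 gave 0, and 1 gene was higher and 0 lower at an unadjusted p under 0.05, against 1.46% and 1.74% of all genes. That gene was Hoxa3, at a log2 FC of 1.61 (standard error 0.36, adjusted p = 0.202), which passed the filter only through the Hmgn2-/- libraries. The groups did not overlap for Hoxa3 and Hoxa7, 2 of the 9, against 8.01% of all genes. In Hmgn1-/-Hmgn2-/- against Hmgn1-/- mESCs, 6 were tested and 0 called with either tool, against 0.511% of 13710 genes (0.35% higher and 0.16% lower), and 1 was higher and 0 lower at an unadjusted p under 0.05, against 4.97% and 4.56%. The higher gene was Hoxa10 (log2 FC 0.79, standard error 0.33, adjusted p = 0.428), while Hoxa7 was the 1 gene of the 6 without overlap (log2 FC 0.70, adjusted p = 0.528), against 15% of all genes. In Hmgn1-/-Hmgn2-/- against Hmgn2-/- mESCs, 10 were tested and 0 called with either tool, against 0.0434% of 13816 genes (0.0362% higher and 0.00724% lower), and 0 had an unadjusted p under 0.05, where 2.76% of all genes were higher and 1.67% lower. Hoxb7 (log2 FC 0.75) and Hoxd13 (0.47) did not overlap there, 2 of the 10, against 10.1% of all genes. Hoxb7 had passed the filter only through the Hmgn1-/-Hmgn2-/- libraries, which favours a higher value there. The log2 FC of Hoxa10 between these lines was 0.51 (standard error 0.28, adjusted p = 1.0), so its value in Hmgn1-/-Hmgn2-/- mESCs was not shown to differ from that in either single knockout.

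With all 9 knockout libraries set against WT in 1 fit, Hoxa7 was past the threshold, in a call that rested on the filter and on most single libraries. Its log2 FC was 1.03 (standard error 0.28, adjusted p = 0.00893), above the WT mean in 9 of 9 libraries. It was the 1 gene called of 12 tested with edgeR, against 6.85% of 14323 genes (1.15% higher and 5.7% lower), and the 1 without overlap, against 24.4%. Hoxa10 had 1.22 (standard error 0.34, adjusted p = 0.0121) and Hoxa3 1.32 (standard error 0.42, adjusted p = 0.0231). Hoxd13 had the lowest value, -0.51 (standard error 0.19, adjusted p = 0.0463). At an unadjusted p under 0.05 there were 5 higher, all in HoxA, and 1 lower, against 19.8% and 22.5% of all genes. DESeq2 called Hoxa10 (log2 FC 1.20, adjusted p = 0.00506) and not Hoxa7 (1.03, adjusted p = 0.0218). Hoxa7 kept its call when Hmgn1-/-Hmgn2-/- replicate 2 was left out (log2 FC 1.08, adjusted p = 0.00791) and lost it without any 1 of the other 11 libraries, at log2 FC 0.85 to 1.17 and adjusted p 0.0106 to 0.0631. With the replicate number as a block the call passed from Hoxa7 (adjusted p = 0.0103) to Hoxa10 (log2 FC 1.23, adjusted p = 0.00608). Hoxa3, Hoxa7, Hoxa10 and Hoxb7 had passed the filter only through the knockout libraries, which favours higher values there. All 4 had a positive log2 FC, the lowest being that of Hoxb7 at 0.25, above the WT mean in 5 of 9 libraries. With no filter beyond 1 count the calls were Hoxa10 (log2 FC 1.23, adjusted p = 0.00619) and Hoxc4, and not Hoxa7 (1.04, adjusted p = 0.0159).

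Several Hox genes outside the rule for named genes were chosen after their values were seen. Hoxa5, which acts in lung and neck development, had 0, 0 and 5 counts in WT, 4, 2 and 4 in Hmgn1-/-, 28, 14 and 6 in Hmgn2-/-, and 23, 8 and 3 in Hmgn1-/-Hmgn2-/- mESCs. It was high in the Hmgn2-/- libraries and in Hmgn1-/-Hmgn2-/- replicate 1, and only the Hmgn2-/- libraries lay wholly above WT. The rate ratio of Hoxa5 against WT was 10.7 (95% interval 4.27 to 34.4) in Hmgn2-/-, 6.63 (2.58 to 21.7) in Hmgn1-/-Hmgn2-/- and 2.25 (0.70 to 8.38) in Hmgn1-/- mESCs. Hoxa5 did not pass the filter in any knockout against WT. With all knockouts against WT it was tested, with a log2 FC of 2.36 (standard error 0.84, adjusted p = 0.0406). Hoxa11, a limb gene, had 1, 4 and 2 counts in WT and 15, 5 and 11 in Hmgn1-/-Hmgn2-/- mESCs, a ratio of 4.32 (1.87 to 11.6), against 6 and 10 counts in all in Hmgn1-/- and Hmgn2-/- mESCs. The 3 Hmgn1-/-Hmgn2-/- libraries lay above WT for Hoxa11, the lowest of them by little (0.226 against 0.224 CPM). Hoxb3 had 23 counts in Hmgn1-/-Hmgn2-/- and 7 in WT mESCs, a ratio of 3.2 (1.33 to 8.84), against 5 in Hmgn1-/- (0.803, 0.201 to 2.94) and 1 in Hmgn2-/- mESCs (0.159, 0.00353 to 1.24). WT replicate 1 held 5 of those 7 counts of Hoxb3, at 0.156 CPM, and overlapped Hmgn1-/-Hmgn2-/- replicate 1 at 0.128 CPM.

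Other Hox genes, at either end of the clusters, had fewer counts in a knockout than in WT. Hoxc4 had 16, 5 and 18 counts in WT, 1, 1 and 5 in Hmgn1-/-, 3, 2 and 4 in Hmgn2-/-, and 6, 3 and 2 in Hmgn1-/-Hmgn2-/- mESCs. All 9 knockout libraries lay below all 3 WT libraries in scaled level, 0.0384 to 0.238 against 0.280 to 0.623 CPM. The ratio of Hoxc4 to WT was 0.202 (95% interval 0.0762 to 0.456), 0.257 (0.109 to 0.539) and 0.275 (0.127 to 0.548) in the 3 lines. It did not pass the filter in any comparison. With no filter beyond 1 count, all knockouts against WT gave Hoxc4 a log2 FC of -1.93 (adjusted p = 0.00331). It also entered that test and was past the threshold without WT replicate 2 (log2 FC -2.15) and without each knockout library in turn (-2.34 to -1.80), with adjusted p from 0.000825 to 0.00578. In these fits Hoxc4 passed the filter only through WT libraries, which favours lower values in the knockouts. Without WT replicate 1 or WT replicate 3, 0 Hox genes were past the threshold there.

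Hoxa13, at the late end of HoxA, had 8, 2 and 5 counts in WT, 1 in each Hmgn1-/- library, 0, 1 and 1 in Hmgn2-/-, and 2, 3 and 5 in Hmgn1-/-Hmgn2-/- mESCs. Its ratio to WT was 0.225 (0.0417 to 0.795) in Hmgn1-/-, 0.148 (0.0165 to 0.638) in Hmgn2-/- and 0.65 (0.261 to 1.55) in Hmgn1-/-Hmgn2-/- mESCs. In the same direction, Hoxc12 had 25 counts in WT and 5, 13 and 10 in the 3 lines, ratios of 0.225 (0.0672 to 0.598), 0.579 (0.272 to 1.17) and 0.390 (0.167 to 0.841). WT replicate 1 held 16 of the 25 WT counts of Hoxc12. Hoxd10 had 13 counts in WT and 2, 4 and 10 in the 3 lines, ratios of 0.173 (0.019 to 0.764), 0.342 (0.0813 to 1.11) and 0.75 (0.294 to 1.85). Among the early genes, Hoxb2 had 10 counts in WT and 1 in Hmgn1-/- mESCs (0.112, 0.00259 to 0.79), but 10 in Hmgn2-/- (1.11, 0.416 to 2.98) and 21 in Hmgn1-/-Hmgn2-/- mESCs (2.05, 0.923 to 4.87). Hoxd4 had 18 counts in WT, 9 in Hmgn1-/- (0.562, 0.222 to 1.32), 5 in Hmgn2-/- (0.309, 0.0897 to 0.864) and 14 in Hmgn1-/-Hmgn2-/- mESCs (0.758, 0.349 to 1.61). Replicate 1 of Hmgn1-/-Hmgn2-/- held 13 of the 21 counts of Hoxb2 and 10 of the 14 of Hoxd4 in that line. Hoxc9, toward the late end, went the other way, with 7 counts in Hmgn1-/- mESCs, 6 of them in replicate 2, and 1 in WT (7.87, 1.01 to 355), and 0 and 3 in Hmgn2-/- and Hmgn1-/-Hmgn2-/- mESCs. All these intervals leave out the spread between replicates, and the genes were picked from 39 by their values.

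The remaining members were seen at low counts. Hoxb4 had 5 to 15 counts in every library, Hoxd11 4 to 13, Hoxb13 3 to 13, Hoxd1 3 to 14 and Hoxb7 2 to 19. Hoxb7 was highest in 1 Hmgn1-/- library at 19 counts, while the other Hmgn1-/- libraries had 3 and 2. Hoxa4 ranged from 3 to 35 counts, with the highest value in Hmgn1-/-Hmgn2-/- replicate 1, and Hoxa2 from 1 to 9. Hoxb1, Hoxb2, Hoxb8, Hoxd4, Hoxd8 and Hoxd9 never exceeded 13 counts in a library. Hoxa9, Hoxc6, Hoxc9, Hoxc10 and Hoxd3 collected 23, 21, 11, 14 and 9 counts over the 12 libraries.

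On GRCm38 the HoxA genes span 105.3 kb of chromosome 6, HoxB 173.9 kb of chromosome 11, HoxC 115.8 kb of chromosome 15 and HoxD 96.8 kb of chromosome 2. Hoxa10 (chr6:52231197-52240854, minus strand) shares no exon with another annotated gene. Of the exons of Hoxa7 (chr6:52214491-52221854), 20.4% lie opposite the antisense transcript Hoxaas3, and of those of Hoxa3, 25.4% lie opposite antisense transcripts and 8.0% are shared on its own strand. For Hoxa11 the antisense share is 35.0%, for Hoxb3 52.9%, and Hoxd3 and Hoxd4 share 62.3% and 52.3% of their exons with other genes on their strand. Whether the counting used the strand is not given in the sources used here, so reads of these genes may include or lose reads of their neighbours.

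The non-coding RNAs of the clusters were scarcer than the Hox genes. Their summed level was 2.10 to 3.52 CPM on average, and poly-A libraries do not measure mature microRNAs. Of 21 names 11 were found, 8 of them at or under 3 counts in every library and Mir10a, Mir10b, Mir196a-2 and Mir615 at 0 in all. The most abundant was Gm53 in the HoxB region, at 2.97 ± 0.596 CPM in WT, 1.70 ± 0.189 in Hmgn1-/-, 1.93 ± 0.268 in Hmgn2-/- and 2.27 ± 0.494 in Hmgn1-/-Hmgn2-/- mESCs (SD, n = 3 each). Of the 21 genes that flank the clusters, 19 were tested and 0 were higher past the threshold in any knockout, while 3, 3 and 2 fell in Hmgn1-/-, Hmgn2-/- and Hmgn1-/-Hmgn2-/- mESCs, where 5.08%, 4.38% and 5% of all genes tested fell. Calcoco2 and Ttll6, near the HoxB cluster, fell in all 3 lines (log2 FC -2.33, -2.43 and -2.26 for Calcoco2, and -1.54, -1.21 and -1.09 for Ttll6, in Hmgn1-/-, Hmgn2-/- and Hmgn1-/-Hmgn2-/- mESCs). Evx1, a homeobox gene beside Hoxa13, fell in both single knockouts (-1.82 and -2.47) and had -1.53 in Hmgn1-/-Hmgn2-/- mESCs, short of the threshold, and Evx2, beside Hoxd13, had 0 counts throughout. In Hmgn1-/-Hmgn2-/- mESCs the count of flanking genes that fell was 2, and 1 without replicate 3 of that line. The most abundant flanking gene, Cbx5, had a log2 FC between 0.00 and 0.05 in the 3 lines.

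Genes that act with or upstream of Hox proteins were read from further lists, beside the 5.08%, 4.38% and 5% of all genes tested that fell in Hmgn1-/-, Hmgn2-/- and Hmgn1-/-Hmgn2-/- mESCs and the 0.898%, 0.776% and 1.3% that rose. Of 10 TALE homeodomain cofactors, Meis2 fell in all 3 lines (log2 FC -1.73, -1.39 and -1.18), and Pknox2 fell in Hmgn1-/- (-1.44) and Hmgn1-/-Hmgn2-/- mESCs (-1.48). In Hmgn2-/- mESCs the count of cofactors that fell was 2, and 1 without WT replicate 2 or 3 or Hmgn2-/- replicate 1 or 2, and in Hmgn1-/-Hmgn2-/- mESCs it was 3, and 1 without replicate 1 or 3 of that line. Tgif1, the most abundant, had 141 to 146 CPM on average in every genotype. Of the 6 ParaHox and Cdx genes 3 were tested in each knockout and 0 passed the threshold with edgeR, Cdx1 being the most abundant (log2 FC 0.31, 0.35 and 0.36). Of the 19 retinoic acid genes, Aldh1a2, which makes retinoic acid, fell in Hmgn1-/- (-1.11) and Hmgn1-/-Hmgn2-/- mESCs (-1.30), and Stra6 (1.68) and Stra8 (1.31) rose in Hmgn1-/-Hmgn2-/- mESCs. The fall in Hmgn1-/- mESCs was lost without WT replicate 2 or 3 or Hmgn1-/- replicate 1 or 2, and the 2 rises became 1 without replicate 1 or 3 of Hmgn1-/-Hmgn2-/-. Without WT replicate 1, the retinoic acid genes that fell were 2 in Hmgn1-/- and 3 in Hmgn1-/-Hmgn2-/- mESCs and 1 rose in each single knockout, without WT replicate 3 the fall in Hmgn1-/-Hmgn2-/- mESCs took in 2, and without Hmgn2-/- replicate 3, 1 fell in Hmgn2-/- mESCs. Rarg was the most abundant, at 356 ± 42.2 CPM in WT and 469 ± 4.21, 474 ± 16.4 and 499 ± 9.07 in the 3 lines (SD, n = 3 each). Of 13 genes of Polycomb repressive complex 2, 20 of complex 1 and 12 trithorax and H3K27 demethylase genes, 0 passed the threshold with edgeR in any knockout, and 1 of complex 2 was lower in Hmgn1-/- mESCs without Hmgn1-/- replicate 2. Their most abundant genes were Jarid2, Phc1 and Ash2l, with mean levels of 773, 601 and 470 CPM.

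Markers of other cell types differed between the groups in which HoxA and HoxD values differed, and their part in the Hox values was not tested. Among all genes tested, 0.898%, 0.776% and 1.3% rose and 5.08%, 4.38% and 5% fell in Hmgn1-/-, Hmgn2-/- and Hmgn1-/-Hmgn2-/- mESCs. Of 8 primitive endoderm markers, 6 rose in each single knockout and 8 in Hmgn1-/-Hmgn2-/- mESCs. Their sum was 13.6, 15.8 and 16.5 CPM in WT, 121, 91.6 and 97.9 in Hmgn1-/-, 147, 127 and 90.6 in Hmgn2-/-, and 306, 303 and 284 in Hmgn1-/-Hmgn2-/- mESCs, with Cubn the most abundant. Of 10 fibroblast markers, 4 of 4 tested fell in each single knockout and 5 of 5 in Hmgn1-/-Hmgn2-/- mESCs, from 39.4, 39.8 and 46.1 CPM in WT to 12.3 to 13.5, 11.8 to 14.9 and 12.6 to 18.01. Col5a1 led that list, Lum had 0 counts in all libraries, and Dcn and Prrx1 were at or under 3 counts. Of 8 trophoblast markers, 5 of 7 tested fell in each line, with sums of 180, 200 and 269 CPM in WT and 60.8 to 71.3, 75.5 to 90.4 and 56.0 to 69.7 in the 3 lines, led by Krt18. Of 8 caudal epiblast and posterior mesoderm markers, T fell in all 3 lines (log2 FC -3.71, -2.89 and -3.37), 0 rose in any single line, Msgn1 was at or under 3 counts, and the sum, led by Cdx1, was 8.28, 14.1 and 14.3 CPM in WT and 10.1 to 12.7 in the knockouts. With all knockouts against WT, Tbx6 rose and T fell past the threshold, where 1.15% of all genes tested rose and 5.7% fell. Without WT replicate 1, 1 caudal marker rose in Hmgn1-/- and 1 in Hmgn1-/-Hmgn2-/- mESCs. Of 8 neural progenitor markers, 0 passed the threshold with edgeR, Pax3 and Neurog2 were at or under 3 counts, and the sum, led by Olig2, was 55.7 to 60.6 CPM in WT and 87.3 to 97.9 in the knockouts. In bulk RNA, more or fewer cells that express a Hox gene and more or less of its RNA per cell cannot be told apart.

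**Figure D5:**
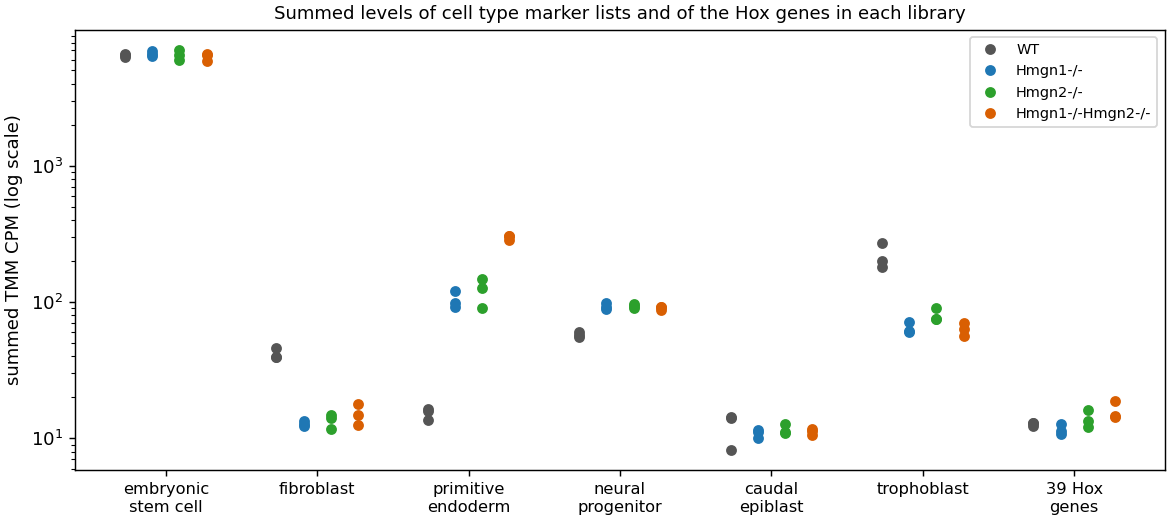
Summed TMM-scaled CPM, on a log axis, of 6 lists of cell type markers and of the 39 Hox genes in each of the 12 libraries. Primitive endoderm markers run from 13.6 to 16.5 CPM in WT and from 284 to 306 in Hmgn1-/-Hmgn2-/- mESCs, while the Hox genes stay between 10.7 and 18.7.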

How the data were processed

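The counts per gene were those deposited by the authors, whole numbers for 23412 genes in 12 libraries of 17337908 to 31448468 counts. The submitters' processing notes name STAR (version 2.6.0 in the study's methods), the mm10 build and DESeq2. The counting program, its annotation and its strand setting are not given in the sources used here. Differences were tested with edgeR 4.0.16 (quasi-likelihood F test, TMM scaling, limma 3.58.1) in R 4.3.3. Genes were filtered with filterByExpr at its defaults, p-values were adjusted by Benjamini and Hochberg, and the threshold was an adjusted p under 0.01 with a log2 FC of at least 1 in size. Each pair of genotypes was fitted on its own 6 libraries, and the mean of the 3 knockouts was set against WT in a fit of all 12. The p-values measure spread between libraries of a single clone per genotype.

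Each test was repeated with DESeq2 1.42.0, with an adjusted p limit of 0.05, without the fold limit and with RLE scaling. The filter was also loosened to 1 count or tightened to 10 counts per library. Further fits took all 12 libraries at once, thinned every library to the size of the smallest, used the replicate number as a block, or omitted a library. The sample labels give replicate numbers and state no pairing across genotypes, so the block fits assumed a pairing by number. The correlation of log levels less the group mean, between libraries of the same number, was above 0.1 in every replicate for WT and Hmgn1-/- (lowest r = 0.143), WT and Hmgn1-/-Hmgn2-/- (0.192), Hmgn1-/- and Hmgn2-/- (0.212), and Hmgn2-/- and Hmgn1-/-Hmgn2-/- (0.179). The lowest was under 0.1 for WT and Hmgn2-/- (lowest r = 0.0797) or Hmgn1-/- and Hmgn1-/-Hmgn2-/- (0.0714). The main fits were unpaired.

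Hox genes were named when their mean was at least 20 counts, when they passed the threshold in any comparison, or when they had the highest or lowest log2 FC of a knockout against WT. Genes of the other lists were named when past the threshold in a knockout or most abundant in their list. Of the genes these rules select, 2 are not reported here by name. The members and the lists were chosen with earlier results of these data known. Rate ratios are summed counts over summed library totals with exact 95% binomial intervals. Exon lengths and overlaps came from GENCODE M21 and promoter windows from RefSeq GRCm38.p6. Tables and figures used Python 3.11.15, pandas 2.3.3, scipy 1.17.1 and matplotlib 3.10.9. The scripts were tested on simulated data.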

Additional observations from a re-analysis of the deposited data

How the results depend on the processing

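The counts of Hox genes past the threshold were small and moved with the processing. For Hmgn2-/- against WT the count was 0, and became 2 at an adjusted p under 0.05 (Hoxa3 and Hoxa7), 1 with no filter beyond 1 count (Hoxa5) and 2 with all 12 libraries in a single fit (Hoxa3 and Hoxa5). For Hmgn1-/-Hmgn2-/- against WT it was 1, and became 2 at an adjusted p under 0.05 and in the single fit of all 12 libraries (Hoxa7 and Hoxa10), and 0 when at least 10 counts were required in every library, which left Hoxa10 untested. For all knockouts against WT it was 1, and became 4 at an adjusted p under 0.05, 2 with no filter beyond 1 count (Hoxa10 and Hoxc4), 0 at 10 counts in every library and 0 with counts thinned to the smallest library. With 1 library left out at a time the count ran from 0 to 1 for each knockout against WT and from 0 to 2 for all knockouts, and it stayed at 0 between knockouts under every setting. The replicate number was also used as a block, a pairing that the labels do not state. The counts were then 0, 0 and 1 in Hmgn1-/-, Hmgn2-/- and Hmgn1-/-Hmgn2-/- mESCs and 1 for all knockouts (Hoxa10, not Hoxa7). The log2 FC of Hoxa10 in Hmgn1-/-Hmgn2-/- mESCs ran from 1.38 to 1.98 with libraries left out, and that of Hoxa7 in all knockouts from 0.85 to 1.17. The 7 genes at or under 3 counts in every library became 2 at a floor of 1 count and 19 at a floor of 10 counts, by construction, and were 7 to 8 with libraries left out. With 1 gene left out of the sum, the summed level of the Hox genes, WT, was 10.7 CPM, and the summed level of the Hox genes, Hmgn1-/-, was 8.92, with 10.4 in Hmgn2-/- and 12.5 in Hmgn1-/-Hmgn2-/- mESCs. Of the other results, 54 moved, 4 were weaker and 749 stayed under a changed setting, and 23 moved, 14 were weaker and 533 stayed with a library left out. The cause of these shifts was not tested.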
